A study of Mus musculus with 27 samples.

Results

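The large olfactory receptor gene clusters of mouse chromosomes 2 and 9 were followed by whole-genome bisulfite sequencing while naive embryonic stem cells became epiblast-like cells. The clusters are the windows lying within chr2:85000000-90000000 or chr9:37600000-40300000 of GRCm38 in a table of windows named as holding 100 CpGs each, and a window was kept where all 27 libraries had a value. Of 827 such windows 817 were kept, 518 on chromosome 2 and 299 on chromosome 9, out of 444250 kept in the whole nuclear genome, and they covered 98.0% and 98.4% of the 2 intervals. The libraries came from 3 lines on 3 days, with 3 libraries for each line and day. TET_KO lacks Tet1, Tet2 and Tet3, TET_WT is the line it was derived from, and DNMT_WT is the wild-type line from which a Dnmt1, Dnmt3a and Dnmt3b knockout, not analysed here, was made. Cells were kept with 2i and Lif on D0 and were taken as epiblast-like cells on D1 and D2. Each genotype is thus 1 line, and nothing in the labels says that the libraries of a group came from separate cultures, so p-values rest only on the spread among these libraries, which may be technical. The table holds percentages without read counts, so the depth behind a value is unknown, no counting interval can be given, and the knockouts themselves were not checked here.

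Olfactory receptors are G protein-coupled receptors of olfactory sensory neurons, and each mature neuron expresses a single receptor allele out of this very large gene family. Their genes are short, usually have the whole coding sequence in a single exon, lie in tandem arrays in AT-rich and CpG-poor DNA, and are silent in embryonic stem cells. Cytosine methylation in CpGs is copied by DNMT1, set up by DNMT3A and DNMT3B, and oxidised by the TET enzymes. Culture with 2i lowers methylation across the genome, and the exit towards the epiblast restores it. Bisulfite conversion does not separate methylcytosine from the hydroxymethylcytosine that TET enzymes make.

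CpG scarcity was visible in the DNA itself. RefSeq (GRCm38.p6) annotated 470 genes in the intervals, of which 308 are olfactory receptor genes, 94 are receptor pseudogenes and 68 are other genes, and 307 of the receptor genes overlapped a kept window. In the 250 bases before the annotated start, 252 sequences of 250 receptor genes had a median of 1 CpG, 44.4% had 0 and none had 10 or more, and their median GC content was 31.6%. Over all 32851 RefSeq promoters the median was 6 CpGs, 7.87% had 0, 37.8% had 10 or more and the median GC content was 52.4%. In 173 of the 252 sequences the gene model begins at the start codon, so the bases before it need not be a promoter. The following 250 bases come from models that begin before the start codon, with every CpG in capitals, and show the range from a receptor gene with low methylation (Olfr998, chr2:85590260-85590509, + strand) and one with high methylation (Olfr147, chr9:38401461-38401710, + strand), over a receptor gene at the edge of its cluster (Olfr986, chr9:40186829-40187078, + strand) and the receptor gene with the most CpGs among such models (Olfr976, chr9:39961045-39961294, - strand), to 2 genes of other kinds inside the interval, Pramel6 (chr2:87506315-87506564, + strand) and the CpG-dense start of Ssrp1 (chr2:85037201-85037450, + strand).
Olfr998: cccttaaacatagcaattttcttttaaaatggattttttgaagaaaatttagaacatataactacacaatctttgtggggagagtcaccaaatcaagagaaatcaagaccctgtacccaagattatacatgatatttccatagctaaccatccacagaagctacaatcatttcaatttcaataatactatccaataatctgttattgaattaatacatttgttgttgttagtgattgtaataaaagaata
Olfr147: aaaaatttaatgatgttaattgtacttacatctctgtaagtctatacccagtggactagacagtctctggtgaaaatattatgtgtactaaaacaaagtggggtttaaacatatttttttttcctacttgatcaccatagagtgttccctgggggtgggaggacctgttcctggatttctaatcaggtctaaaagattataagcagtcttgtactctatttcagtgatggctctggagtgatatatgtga
Olfr986: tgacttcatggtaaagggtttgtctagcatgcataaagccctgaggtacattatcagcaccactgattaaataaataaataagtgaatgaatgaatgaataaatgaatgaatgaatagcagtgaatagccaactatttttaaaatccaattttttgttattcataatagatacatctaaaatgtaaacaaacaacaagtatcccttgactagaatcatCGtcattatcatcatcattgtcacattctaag
Olfr976: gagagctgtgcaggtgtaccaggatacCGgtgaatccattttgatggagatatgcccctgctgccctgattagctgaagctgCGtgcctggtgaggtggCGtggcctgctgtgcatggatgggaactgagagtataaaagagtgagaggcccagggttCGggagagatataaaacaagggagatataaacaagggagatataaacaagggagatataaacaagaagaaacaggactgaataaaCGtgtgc
Pramel6: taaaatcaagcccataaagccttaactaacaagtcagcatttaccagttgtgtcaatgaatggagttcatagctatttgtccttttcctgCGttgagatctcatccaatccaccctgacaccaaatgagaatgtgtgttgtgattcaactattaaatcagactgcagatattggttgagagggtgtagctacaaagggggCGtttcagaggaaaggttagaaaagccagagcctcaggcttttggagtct
Ssrp1: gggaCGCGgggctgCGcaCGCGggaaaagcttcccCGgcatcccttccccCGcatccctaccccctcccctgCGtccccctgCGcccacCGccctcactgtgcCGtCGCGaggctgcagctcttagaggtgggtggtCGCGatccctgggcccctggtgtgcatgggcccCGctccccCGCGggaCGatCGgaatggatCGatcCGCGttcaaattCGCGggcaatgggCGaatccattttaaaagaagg
These sequences held 0, 0, 1, 5, 2 and 26 CpGs in the order given. Olfr998 and Olfr147 both lack a CpG here, yet their windows were at 17.6% and 71.6% on D2 in TET_WT. The homeodomain motif TAATTA, searched on both strands, occurred in 21.8% of the receptor sequences and in 4.84% of all promoters. The early B-cell factor motif, TCCC and GGGA separated by any 2 bases, searched likewise, occurred in 0 of the 252 and in 0.779% of all promoters. TAATTA holds only A and T, and the median GC content was 31.6% in the receptor sequences and 52.4% over all promoters. The shares were not compared at equal base composition, so they show no enrichment or lack of either motif. The motifs are a description of letters in this stretch only.

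With few CpGs per kilobase, windows in the clusters were long. Their median length was 9600 bp, against 5053 bp in the rest of the genome, and 504 of the 817 windows were 8 to 16 kb long. A receptor gene overlapped 329 windows, only a receptor pseudogene 65, only another gene 112 and no annotated gene 311. Receptor genes have near-identical copies, and how the authors treated reads that match several copies is not given in the sources used here, so values of single receptor genes are uncertain to that extent.

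The clusters gained methylation over both days in every line, and TET_KO was the highest and DNMT_WT the lowest line throughout. Averaged over the 817 windows, the 3 TET_KO libraries were at 50.5%, 50.2% and 52.2% on D0, 57.8%, 57.8% and 58.5% on D1, and 72.2%, 73.1% and 70.7% on D2. The TET_WT libraries were at 25.1%, 25.8% and 25.6% on D0, 33.4%, 30.3% and 33.2% on D1, and 46.9%, 51.3% and 46.1% on D2. The DNMT_WT libraries were at 3.26%, 3.33% and 3.36% on D0, 10.5%, 10.5% and 10.6% on D1, and 43.5%, 42.9% and 43.5% on D2. No library of a later day overlapped one of an earlier day of its line, and on each day no TET_KO library overlapped a TET_WT library. TET_WT replicate 2 stood apart on D1, where it was the lowest, and on D2, where it was the highest, in the clusters as in the rest of the genome.

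**Figure D1:**
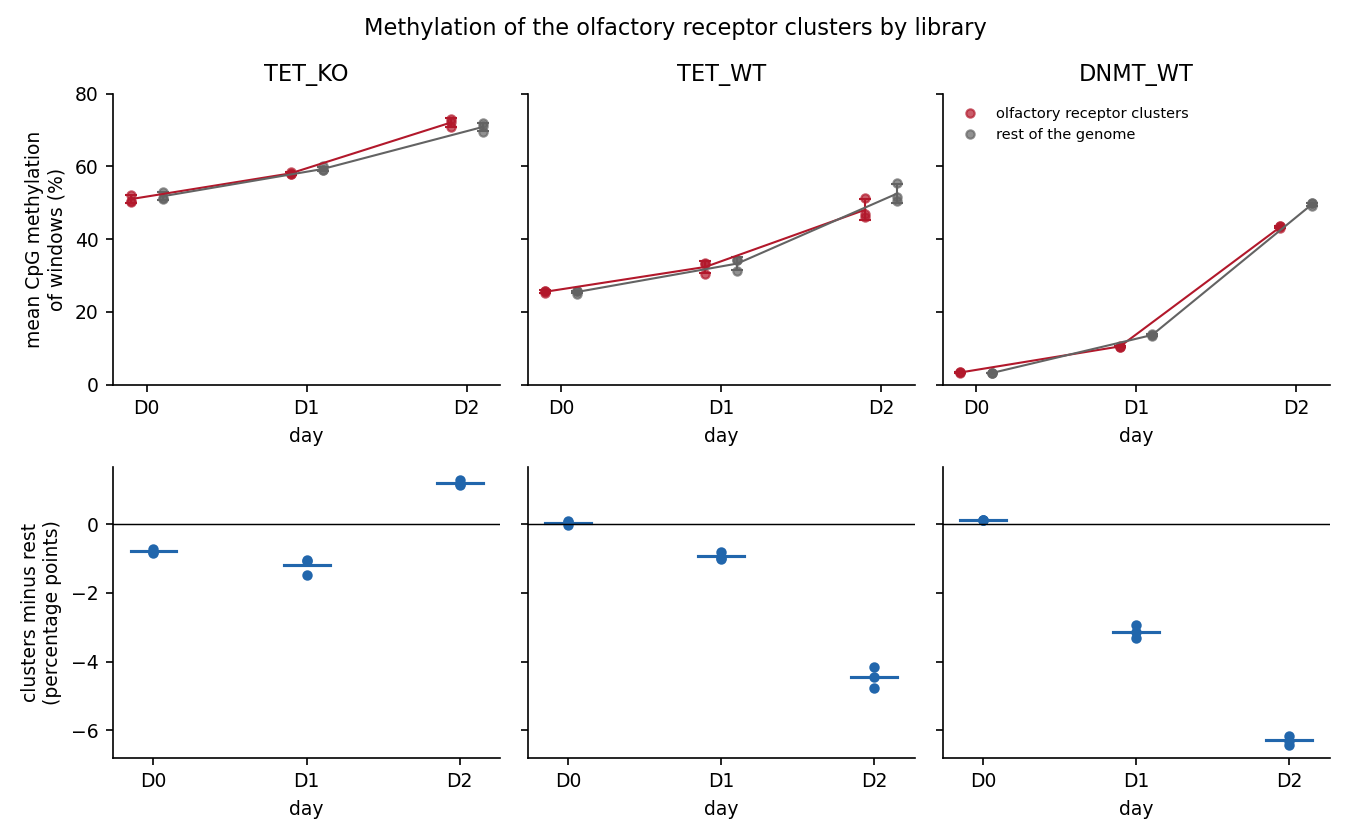
The upper panels show mean CpG methylation in percent by day for the olfactory receptor clusters (817 windows) and for the rest of the genome (443433 windows), with points for the 3 libraries, lines through the means and SD bars. The lower panels show clusters minus rest in percentage points for each library, with the mean of each group as a bar. In TET_WT and DNMT_WT it lies below 0 on D1 and further below on D2. In TET_KO it lies below 0 on D0 and D1 and above 0 on D2. The medians over windows lie the other way in TET_KO on D2, at 73.2% in the clusters and 76.8% in the rest.

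With day labels permuted within each line, the clusters rose by a mean of 7.03 points between D0 and D1 and of 20.8 points between D1 and D2 (two-sided exact permutation tests over 18 libraries each, p = 0.00025, the smallest that 8000 arrangements allow, adjusted p = 0.0004 over 8 such tests). TET_KO exceeded TET_WT by 25.03 points over the 3 days and DNMT_WT lay 16.3 points below TET_WT (a difference of -16.3), with the same exact permutation p of 0.00025. Within one line or day, an exact permutation test of 3 against 3 libraries cannot go below p = 0.1.

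The rest of the genome moved in the same direction. By means over windows, the clusters differed from it by few points on D0 and by more on D2. On D0 the mean of the clusters minus that of the rest was -0.793 ± 0.0562 points in TET_KO, 0.0418 ± 0.0527 in TET_WT and 0.118 ± 0.00999 in DNMT_WT (SD, n = 3 libraries). On D1 it was -1.19 ± 0.242, -0.931 ± 0.101 and -3.13 ± 0.195 in the same lines. By D2 the clusters lay 1.202 ± 0.0762 points above the rest in TET_KO, while the difference was -4.46 ± 0.299 points in TET_WT and -6.30 ± 0.131 in DNMT_WT. Over the 3 lines the difference from the rest moved by -1.54 points from D0 to D1 (exact permutation p = 0.00025, adjusted p = 0.0004) and by -1.43 points from D1 to D2 (exact permutation p = 0.0728, adjusted p = 0.0831). The value of -1.43 averages a rise in TET_KO with falls in TET_WT and DNMT_WT. Taken over the 3 days, clusters minus rest averaged -0.262 points in TET_KO (exact permutation p = 0.488), -1.78 in TET_WT (exact permutation p = 0.0273, adjusted p = 0.0355) and -3.10 in DNMT_WT (exact permutation p = 0.0312, adjusted p = 0.0369), and was above 0 in 3, 2 and 3 of 9 libraries. Between lines it was 1.52 points for TET_KO against TET_WT (exact permutation p = 0.1) and -1.32 for DNMT_WT against TET_WT (exact permutation p = 0.005, adjusted p = 0.00667). The value of 1.52 averages over days of opposite sign, since TET_KO lay below TET_WT on D0 and D1 and above it on D2. The calls over 3 days lie near the threshold. In TET_WT 6 of 9 omissions of a library took the exact permutation p above 0.05, and likewise in DNMT_WT. The estimates kept their sign, at -2.02 to -1.41 points in TET_WT and -3.51 to -2.69 in DNMT_WT. Fewer libraries allow fewer sign changes, so the p can rise for that reason alone. The calls also depend on the measure. Between the first and the last receptor gene only, TET_WT was at -1.46 (exact permutation p = 0.176). For DNMT_WT against TET_WT, medians gave -0.17 (exact permutation p = 0.707) and receptor gene windows alone 0.338 (exact permutation p = 0.585).

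Clusters minus rest differs in sign between means and medians over windows in TET_KO on D2. It does so on D0 in TET_WT and DNMT_WT too, where the means were 0.0418 and 0.118 points above 0. In TET_KO the medians of clusters and rest lay further apart on D0 than on D2. Windows under 10% made up 0.857% of the clusters and 4.84% of the rest in TET_KO on D0, and 0.612% and 4.13% on D2. On D0 the median window of the clusters was at 50.6% in TET_KO, 22.0% in TET_WT and 1.76% in DNMT_WT, and that of the rest at 55.6%, 25.2% and 2.35%. On D2 the cluster median was at 73.2% in TET_KO, 46.6% in TET_WT and 41.1% in DNMT_WT, and that of the rest at 76.8%, 56.1% and 53.1%, so by medians the clusters lay below the rest in all 3 lines.

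The spread among cluster windows was wide and shifted as a whole. In TET_WT the central 90% of the windows lay between 11.0% and 52.2% on D0, 15.9% and 60.0% on D1, and 26.6% and 76.1% on D2. In TET_KO the same range was 30.7% to 72.5% on D0, 36.0% to 79.7% on D1 and 53.6% to 86.8% on D2. In DNMT_WT 757 of the 817 windows (92.7%) were under 10% on D0, 498 (60.95%) on D1 and 6 (0.734%) on D2. In the rest of the genome 96.6%, 40.3% and 4.54% of the windows were. On D2 over 80% methylation was reached in 186 windows (22.8%) in TET_KO, 23 (2.8%) in TET_WT and 1 (0.122%) in DNMT_WT. The shares of the rest were 37.4%, 1.90% and 0.444%.

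Single windows were tested with limma over all 444250 windows and called where the difference reached 10 points and its p, adjusted by Benjamini-Hochberg, was under 0.05. From D0 to D1 a minority of the cluster windows rose by that much. These were 83 windows (10.2%) in TET_KO, 94 (11.5%) in TET_WT and 202 (24.7%) in DNMT_WT, where 20.1%, 27.6% and 49.0% of all windows were called higher. From D1 to D2 most rose, with 630 (77.1%) in TET_KO, 700 (85.7%) in TET_WT and 810 (99.1%) in DNMT_WT, where the shares of all windows were 65.8%, 88.0% and 94.9%. The cluster share was thus below that of all windows in 4 of these 6 steps and above it in TET_KO and DNMT_WT from D1 to D2. The TET_KO share from D1 to D2 varied with window length. It was 25.7% under 4 kb, 54.0% at 4 to 8 kb and 93.7% at 8 to 16 kb. Other autosomal windows of these lengths had 42.0%, 71.9% and 91.4%.

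Lower calls numbered 0 in all 6 steps, and at an unadjusted limma p under 0.05 there were 2 lower windows in TET_KO from D0 to D1 and 0 in the other steps. Since the whole genome rose, the calls were repeated with each library centred on its own median over all windows, a shift of 8.43 and 12.8 points in TET_KO, 8.46 and 22.4 in TET_WT, and 10.3 and 40.5 in DNMT_WT, for the first and the second day in each line. Relative to that median, the calls from D0 to D1 were 0 higher and 5 lower in TET_KO, 1 and 1 in TET_WT, and 21 and 3 in DNMT_WT. From D1 to D2 they were 9 higher and 9 lower in TET_KO, but 5 higher and 250 lower in TET_WT and 5 higher and 332 lower in DNMT_WT, so that 30.6% and 40.6% of the cluster windows were lower relative to the median in TET_WT and DNMT_WT, where 17.8% and 25.35% of all windows were.

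The comparison of TET_KO with TET_WT asks what loss of the oxidising enzymes does to methylation of these silent genes. Nearly every cluster window was more methylated in TET_KO. On D0 limma called 791 of the 817 windows (96.8%) higher in TET_KO, on D1 784 (96.0%) and on D2 754 (92.3%), and 92.9%, 92.6% and 84.3% of all windows were called. No cluster window was called lower, also at an unadjusted p under 0.05. The mean difference for D0, D1 and D2 was 25.4 ± 0.645, 25.7 ± 1.02 and 23.9 ± 1.78 points (SE, n = 3 libraries each), where the rest of the genome had 26.3 ± 0.674, 26.0 ± 1.04 and 18.3 ± 1.64. Relative to the library medians, which differed by 30.4, 30.3 and 20.7 points, the calls were 13 higher and 166 lower on D0, 10 and 146 on D1, and 211 and 71 on D2.

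DNMT_WT and TET_WT are wild-type parents of different knockout lines, and their comparison sets 2 unmodified lines side by side. On D0 782 cluster windows (95.7%) were lower in DNMT_WT than in TET_WT and on D1 784 (96.0%), with 88.9% and 85.6% of all windows called lower. On D2 17 cluster windows (2.08%) were higher and 142 (17.4%) lower in DNMT_WT, and 1.78% and 10.5% of all windows were. Relative to the library medians the calls were 102 higher and 128 lower on D0, 41 and 105 on D1, and 25 and 62 on D2. Window chr9:39074189-39076734, which overlaps only the pseudogene Gm8543, was at 49.8%, 53.9% and 55.1% in DNMT_WT on D2 and at 78.0%, 82.0% and 74.0% in TET_WT. It differed by -25.0 ± 2.45 points (limma adjusted p = 1.6e-08), the most negative value of the comparison. The window of Olfr1085, chr2:86655370-86671620, was at 14.1%, 13.7% and 13.6% in DNMT_WT and at 28.7%, 29.8% and 29.2% in TET_WT on D2. The window of Olfr1056, chr2:86348311-86359078, went the other way, with 69.5%, 68.0% and 70.9% in DNMT_WT and 51.6%, 54.2% and 49.6% in TET_WT. In each of these windows the groups did not overlap.

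The gain from D0 to D2 in the clusters was slightly above that of the rest of the genome in TET_KO and further below it in TET_WT and DNMT_WT. In TET_KO the clusters gained 21.0 ± 0.941 points and the rest 19.0 ± 0.929, in TET_WT the clusters gained 22.6 ± 1.64 and the rest 27.1 ± 1.51, and in DNMT_WT the clusters gained 40.0 ± 0.178 and the rest 46.4 ± 0.248 (SE, n = 3 libraries on each day). Clusters minus rest thus gained 6.50 points more in TET_KO than in TET_WT, and the same measure gave -1.91 points for DNMT_WT against TET_WT (two-sided exact permutation of line labels within days over 12 libraries, p = 0.005 for each, the smallest of 400 arrangements, adjusted p = 0.015 over 6 tests). The gain of the clusters themselves differed by -1.52 points between TET_KO and TET_WT (exact permutation p = 0.805), and the difference was 17.4 points for DNMT_WT against TET_WT (exact permutation p = 0.1). With line labels permuted within each day, the p of a gain also carries differences in level between the lines on a day. Such a p does not measure the spread of the libraries around the gain. For DNMT_WT against TET_WT the p rose above 0.05, though the estimate of -1.91 points did not shrink, in 2 alternatives. These were the rest limited to chromosomes 2 and 9 (-2.17, exact permutation p = 0.085) and windows between the first and the last receptor gene only (-2.15, exact permutation p = 0.1).

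By window, 68 of the 817 (8.32%) gained more in TET_KO than in TET_WT and 137 (16.8%) gained less, where 2.5% and 44.2% of all windows did. Among windows of 8 to 16 kb, 12.7% of the cluster windows gained more and 8.73% less, against 10.2% and 13.8% of other autosomal windows. Between 4 and 8 kb the shares were 0% and 33.0%, against 0.373% and 51.75%. The split of 68 higher and 137 lower rests on 1 library: without TET_WT D2 replicate 2 the counts were 121 higher and 110 lower. Relative to the library medians it was 360 higher and 20 lower, since the median window of the genome had a difference of -9.64 points between the gains of TET_KO and TET_WT. For DNMT_WT against TET_WT 628 cluster windows (76.9%) gained more and 0 gained less, also at an unadjusted limma p under 0.05, with 82.7% of all windows called higher, and relative to the medians the split was 87 higher and 181 lower.

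The 68 windows with the larger gain in TET_KO were long and lay mostly over receptor genes. Their median length was 13180 bp, 48 overlapped a receptor gene, 9 only a pseudogene of one and 0 only another gene, and 61 lay on chromosome 2. Their means were 35.0% on D0, 41.2% on D1 and 61.6% on D2 in TET_KO, and 13.7%, 18.4% and 27.9% in TET_WT. The 137 windows with the smaller gain had a median length of 6551 bp, 42 overlapped only another gene and 61 no gene, and 80 lay on chromosome 9. They started higher, at 61.8% in TET_KO and 31.5% in TET_WT on D0, and reached 79.7% and 64.6% on D2. Of all 817 windows, 329 overlapped a receptor gene, 112 only another gene and 311 no gene. On chromosome 2 lay 518 of them and on chromosome 9 299, and their median length was 9600 bp. Among receptor gene windows of the clusters, 14.6% were called higher and 8.21% lower. Among the 989 receptor gene windows elsewhere in the genome, 8.39% and 10.6% were. A window over Olfr1016, chr2:85799484-85812659, was at 56.3%, 59.9% and 53.6% in TET_KO and at 22.3%, 25.5% and 21.9% in TET_WT on D2, after 27.6%, 31.6% and 34.0% in TET_KO and 12.1%, 18.1% and 13.2% in TET_WT on D0. Its gain was 16.8 ± 2.46 points larger in TET_KO (limma adjusted p = 3.9e-06). The largest difference of gains in this direction, 17.6 ± 2.14 points (limma adjusted p = 4.4e-07), was in a window of receptor pseudogenes, Olfr1191-ps1 and Olfr1192-ps1, chr2:88643201-88656914.

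**Figure D2:**
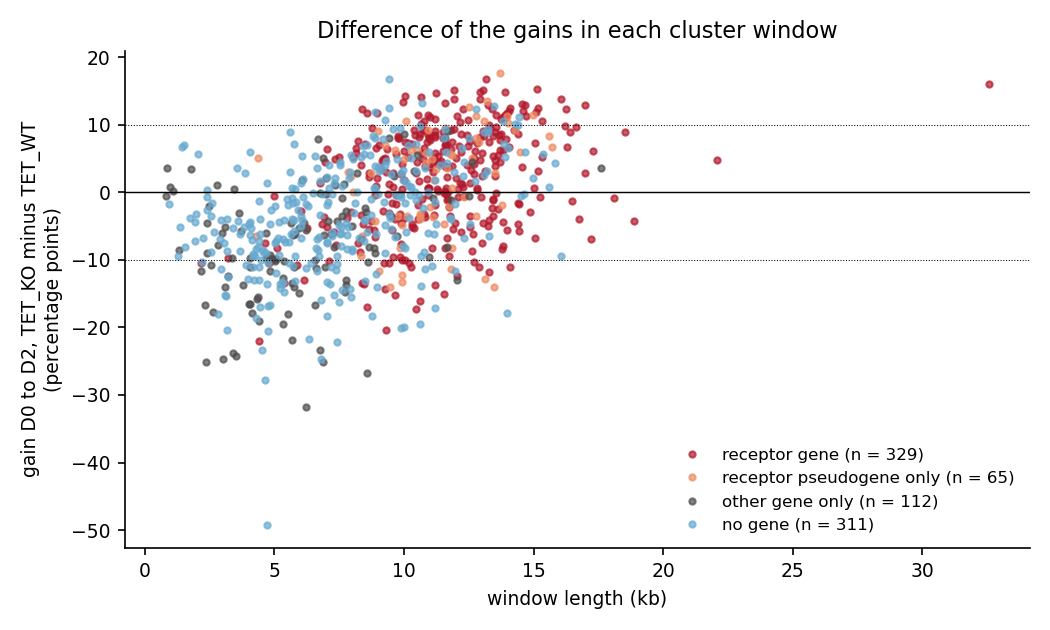
Each point is a cluster window, with its length in kb on the horizontal axis and the gain from D0 to D2 in TET_KO minus that in TET_WT, in percentage points, on the vertical axis. Colours give what the window overlaps, and dotted lines mark 10 points in each direction. Of the 68 windows called higher 48 overlap a receptor gene, as do 329 of all 817 windows. The 112 windows with only another gene have 0 higher and 42 lower calls.

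Window length, and with it CpG spacing, moved with these results. Among windows of 8 to 16 kb, the means for D0, D1 and D2 were 47.0%, 54.1% and 70.1% in TET_KO clusters and 48.0%, 55.4% and 70.3% in other autosomal windows of that length. In TET_WT the clusters were at 21.3%, 27.6% and 42.7% and the other windows at 22.2%, 28.7% and 44.6%. In DNMT_WT they were at 1.95%, 7.24% and 37.6%, and the other windows at 2.01%, 7.78% and 38.9%. The clusters were lower in all 9 libraries of each line, by a mean of -0.859 points in TET_KO, -1.28 in TET_WT and -0.635 in DNMT_WT (exact sign permutation over 9 libraries, p = 0.0039 each, the smallest that sign changes over 9 libraries allow, adjusted p = 0.00564 over 39 tests). In this length class the difference of gains between TET_KO and TET_WT was 1.68 points larger in the clusters (exact permutation p = 0.025, adjusted p = 0.05), in place of 6.50 over all lengths, and for DNMT_WT it was -0.226 (exact permutation p = 0.655).

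Short windows behaved differently. The 70 cluster windows under 4 kb were more methylated than other autosomal windows under 4 kb. The difference was 8.99 points in TET_KO, 10.5 in TET_WT and 5.35 in DNMT_WT, above 0 in 9 of 9 libraries of each line (exact permutation p = 0.0039 each, adjusted p = 0.00564). For D0, D1 and D2 the difference was 9.56, 9.06 and 8.33 in TET_KO, 12.4, 11.6 and 7.59 in TET_WT, and 4.46, 4.84 and 6.74 in DNMT_WT. It thus rose in DNMT_WT, where clusters minus rest over all lengths fell. Differences of gains were not tested in this length class. The class has no lower bound, so its cluster windows and other windows were not matched in length. Over all lengths, the 5th percentile of window length was 2980 bp in the clusters and 1433 bp in the rest of the genome. Between 4 and 8 kb the clusters were above the other windows by 1.38 points in TET_KO (9 of 9 libraries, exact permutation p = 0.0039) and 2.54 in TET_WT (6 of 9 libraries, exact permutation p = 0.0312, adjusted p = 0.0369), and the difference was -0.0152 in DNMT_WT (exact permutation p = 0.969). These means hide a trend with day, since in this length class clusters minus other windows was 2.22, 1.60 and 0.329 points in TET_KO, 4.21, 3.64 and -0.244 in TET_WT, and 1.75, 0.25 and -2.05 in DNMT_WT for D0, D1 and D2.

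**Figure D3:**
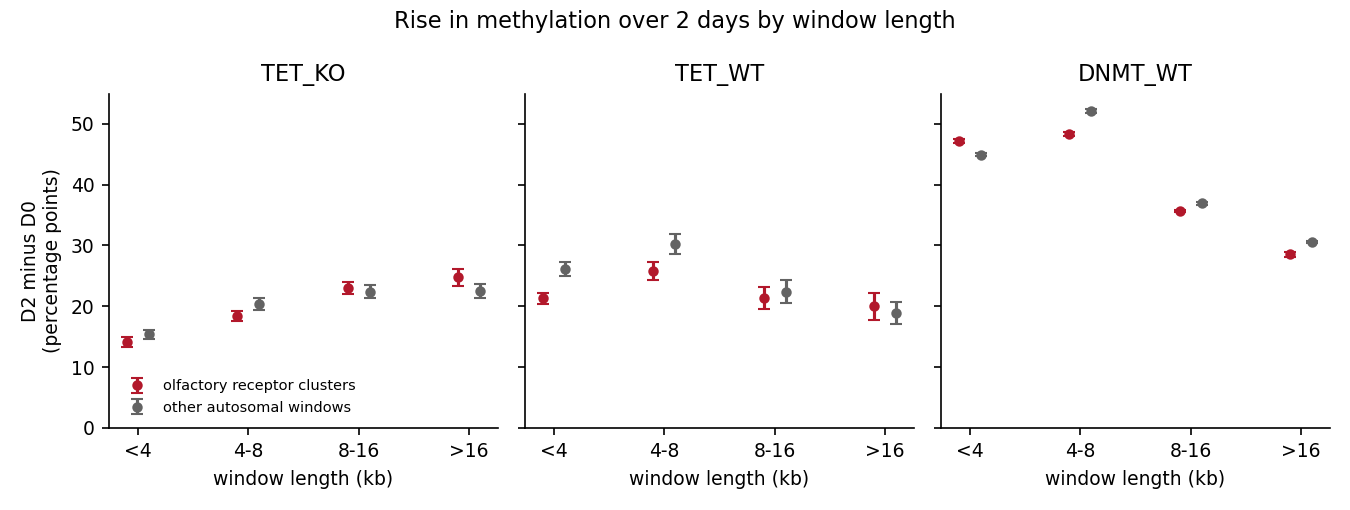
Points show D2 minus D0 in percentage points with SE bars (n = 3 libraries on each day) for windows under 4, 4 to 8, 8 to 16 and over 16 kb, in the clusters and in other autosomal windows. The gain of TET_KO is larger in longer windows in both sets, from 14.1 to 24.8 points in the clusters, while that of DNMT_WT is smallest in windows over 16 kb.

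Within the clusters, windows over receptor genes were less methylated than windows with no gene. On D0 they were at 46.6% ± 1.11 in TET_KO, 20.9% ± 0.312 in TET_WT and 1.92% ± 0.0537 in DNMT_WT, and windows with no gene at 56.1% ± 1.15, 31.5% ± 0.436 and 5.12% ± 0.0333 (SD, n = 3). On D2 they were at 69.9% ± 1.47, 42.0% ± 3.11 and 37.2% ± 0.293, and windows with no gene at 75.2% ± 1.03, 54.4% ± 2.51 and 48.7% ± 0.358. The mean difference over 9 libraries was -8.10 points in TET_KO, -11.5 in TET_WT and -7.11 in DNMT_WT, with the receptor windows lower in every library (exact permutation p = 0.0039 each, adjusted p = 0.00564). The difference was smaller within length classes, where it was -2.03, -2.99 and -1.63 points among windows of 8 to 16 kb and -2.26, -5.42 and -3.52 points between 4 and 8 kb, each with the same p. Receptor gene windows also lay below windows of other genes, by -3.99 points in TET_KO, -6.15 in TET_WT and -6.61 in DNMT_WT (exact permutation p = 0.0039 each). These averages hide trends with day. From D0 to D2 the difference went from -5.14 to -1.07 points in TET_KO, from -3.83 to -9.65 in TET_WT and from -1.26 to -12.4 in DNMT_WT. It was not tested within length classes.

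Genes and pseudogenes of the receptor family were close to each other. The receptor gene windows differed from windows with only a receptor pseudogene by 0.376 points in TET_KO (exact permutation p = 0.0625), -0.662 in TET_WT (p = 0.0039 in the same exact permutation test) and -0.151 in DNMT_WT (exact permutation p = 0.102). Set against the 989 receptor gene windows elsewhere in the genome, those of the clusters differed by 1.66 points in TET_KO (exact permutation p = 0.0039), -0.247 in TET_WT (exact permutation p = 0.0039) and -0.0217 in DNMT_WT (exact permutation p = 0.715). Apart from the 1.66 points in TET_KO, these differences were under 1 point.

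**Figure D4:**
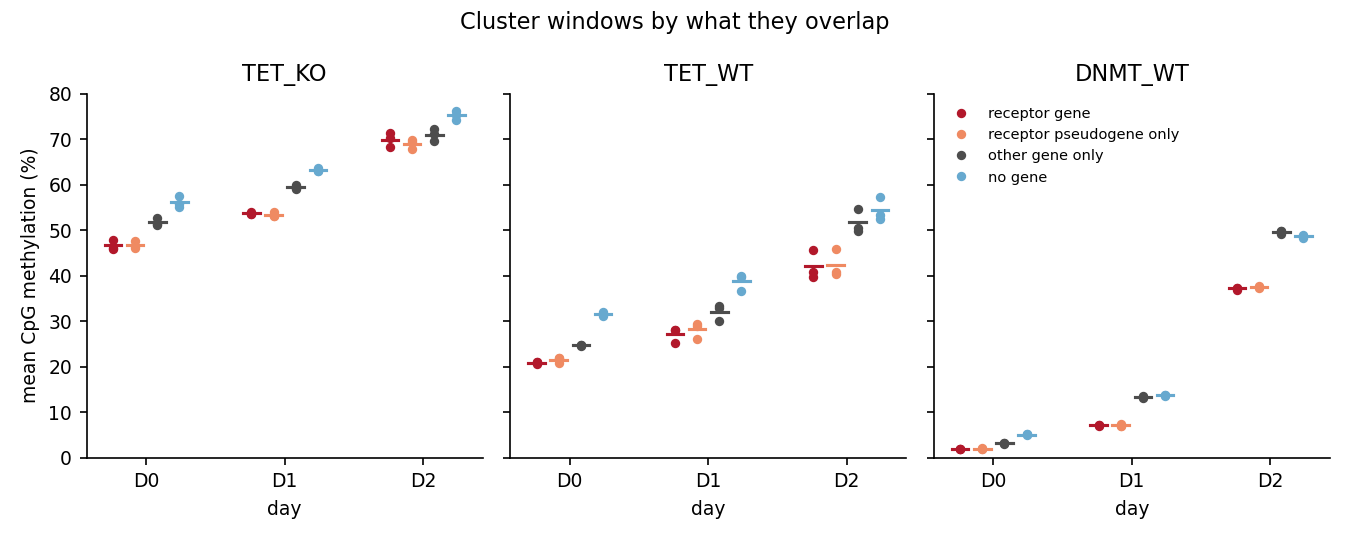
Mean CpG methylation in percent by day for cluster windows overlapping a receptor gene (329), only a receptor pseudogene (65), only another gene (112) or no gene (311), with a point for each of the 3 libraries and a bar at their mean. Receptor gene and pseudogene windows lie close together, at 37.2% and 37.5% on D2 in DNMT_WT where their libraries do not overlap, and windows with no gene are the highest on D0 in each line.

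The 1 Mb on either side of the intervals held 784 windows. Over the 9 libraries of each line the clusters exceeded these flanks by 3.30 points in TET_KO (9 of 9 libraries, exact permutation p = 0.0039) and by 0.265 in TET_WT (6 of 9 libraries, exact permutation p = 0.77), and the difference was -3.27 in DNMT_WT (3 of 9 libraries above, exact permutation p = 0.0312). On D2 the difference was 5.20 points in TET_KO, -3.27 in TET_WT and -6.53 in DNMT_WT.

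The cluster of chromosome 2 was less methylated than that of chromosome 9 in all 27 libraries. The mean difference was -2.51 points in TET_KO, -4.72 in TET_WT and -2.27 in DNMT_WT (exact permutation p = 0.0039 each, adjusted p = 0.00564). On D2 chromosome 2 was at 71.6% ± 1.35 in TET_KO, 45.6% ± 2.98 in TET_WT and 41.9% ± 0.375 in DNMT_WT, and chromosome 9 at 72.6% ± 1.05, 52.4% ± 2.54 and 45.7% ± 0.18 (SD, n = 3). The clusters also differ in their windows, with a median length of 9884 bp on chromosome 2 and 8917 bp on chromosome 9. A receptor gene overlapped 222 of 518 windows on chromosome 2 and 107 of 299 on chromosome 9. The 2 clusters were not compared at equal window length or gene content.

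In bins of 250 kb the 3 lines largely rose and fell together along the clusters. On D2 the highest TET_WT values were centred 0.875 and 1.125 Mb into the chromosome 9 interval, at 66.9% and 63.7%, after 38.1% and 36.4% on D0, where TET_KO had 57.4% and 58.9% on D0 and 76.6% and 77.7% on D2. On chromosome 2 the trough at 0.625 Mb was at 38.5% in TET_KO and 17.3% in TET_WT on D0, and at 61.5% in TET_KO, 33.3% in TET_WT and 30.6% in DNMT_WT on D2. A trough at 3.875 Mb had 67.3%, 33.5% and 28.4% in the same order on D2. The chromosome 2 peak of TET_KO and TET_WT on D2, at 2.625 Mb, had 78.9% in TET_KO, 60.0% in TET_WT and 53.0% in DNMT_WT, whose own highest bin there, at 1.375 Mb, had 54.4%. Windows in the troughs were on average 10384 and 11480 bp long and in the peak 8820 bp, while the chromosome 9 peak had windows of 9965 and 9659 bp.

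**Figure D5:**
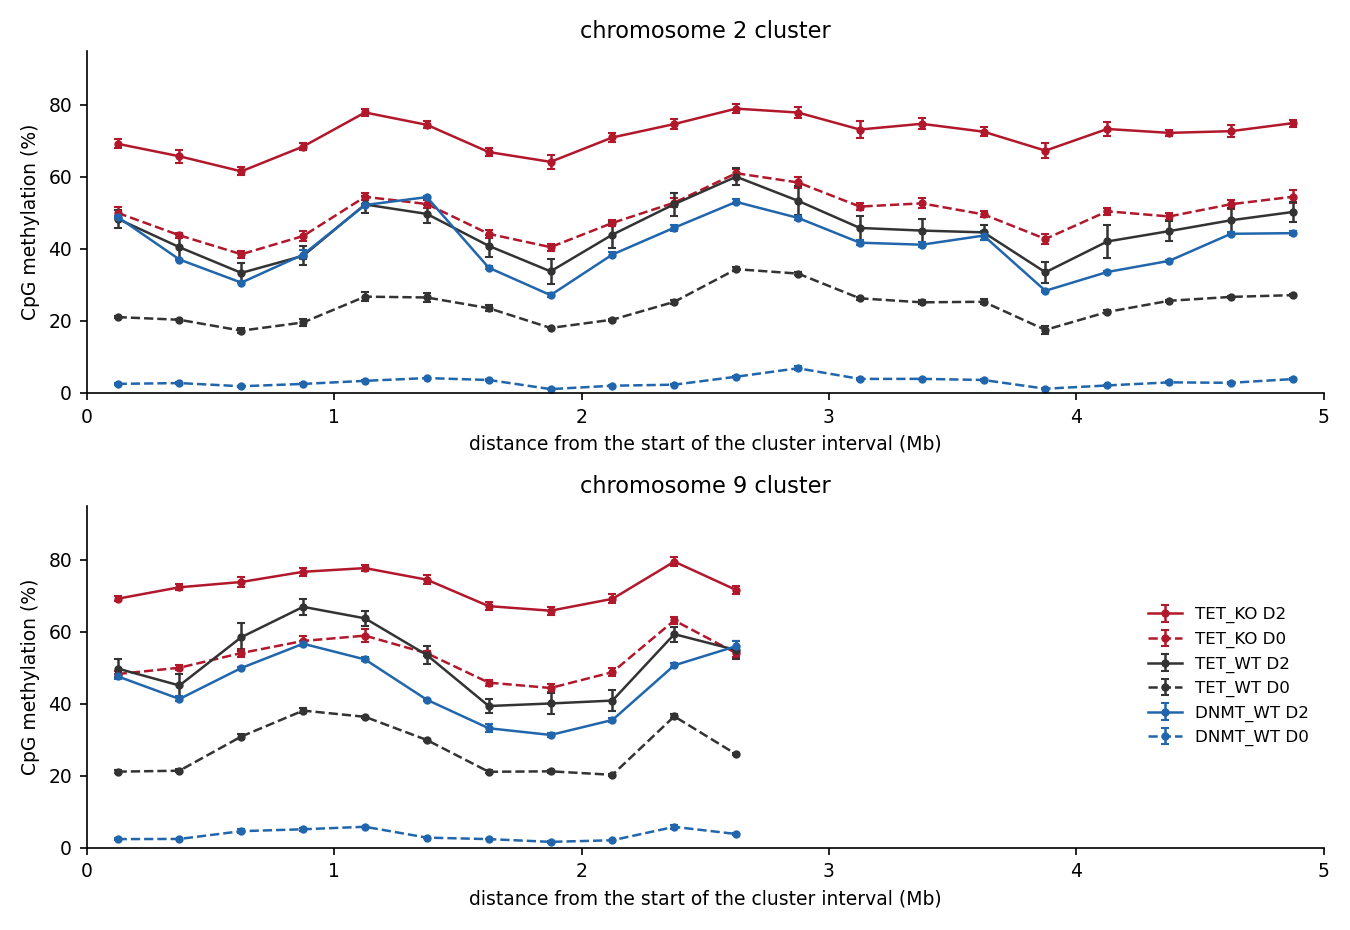
CpG methylation in percent in bins of 250 kb against distance in Mb from the start of each interval, with points at the mean of 3 libraries and SD bars, for TET_KO, TET_WT and DNMT_WT on D0 (dashed) and D2 (solid). The lines largely rise and fall together, and TET_KO on D2 is the highest in every bin.

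Receptor genes were measured by the mean of the windows over their bodies. Over 307 genes the level on D2 ranged from 37.4% to 87.2% with a median of 70.6% in TET_KO, from 16.02% to 83.3% with a median of 39.9% in TET_WT, and from 13.8% to 84.4% with a median of 34.7% in DNMT_WT. On D0 the medians were 46.4% in TET_KO, 19.1% in TET_WT and 1.22% in DNMT_WT. The 94 pseudogenes had D2 medians of 68.6%, 38.1% and 34.2% in the same lines. A window often holds more than the gene, so these are levels of the gene with its surroundings.

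Olfr951, on chromosome 9 in a window at chr9:39389491-39396524, was the lowest receptor gene on D2 in TET_WT and in TET_KO. It was at 36.5%, 40.7% and 35.0% in TET_KO, at 17.6%, 15.2% and 15.3% in TET_WT, and at 14.3%, 17.6% and 14.7% in DNMT_WT. The wild-type lines overlap, and TET_KO lies above both. Olfr998, in chr2:85580629-85593658, was at 42.5%, 44.4% and 44.7% in TET_KO, 18.7%, 19.5% and 14.7% in TET_WT and 14.1%, 13.8% and 14.9% in DNMT_WT on D2. At the other end, Olfr1055 in chr2:86345676-86347854, a window of 2179 bp, was at 81.7%, 82.0% and 89.0% in TET_KO, 80.4%, 90.2% and 79.4% in TET_WT and 84.2%, 85.1% and 83.9% in DNMT_WT. All 3 lines overlap there. Olfr926 in chr9:38870345-38881545 was at 85.8%, 88.2% and 84.2% in TET_KO, 82.4%, 82.1% and 79.1% in TET_WT and 71.1%, 70.4% and 65.0% in DNMT_WT. Olfr951 and Olfr926 belong to the same family, MOR171, and both lie on chromosome 9.

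The difference between TET_KO and TET_WT on D0 also varied between receptor genes. Olfr986, the last receptor gene of the chromosome 9 interval, had the largest, with 59.6%, 62.4% and 61.1% in TET_KO and 25.3%, 22.9% and 20.3% in TET_WT, a difference of 38.2 points. Olfr1085 had the smallest, with 24.4%, 23.5% and 19.6% in TET_KO and 16.6%, 14.1% and 14.3% in TET_WT, a difference of 7.53 points. In both genes the groups did not overlap.

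RefSeq synonyms placed 293 of the 307 receptor genes in families named MOR, whose members are related in sequence and mostly neighbours, and 24 groups of a family on a chromosome held 5 or more genes. The families were described after their values were seen. Of the 4 lowest in TET_WT on D2 among these groups of 5 or more genes, 3 lay near the start of the chromosome 2 interval, and MOR206 lay further along it. MOR175, with 6 genes, averaged 54.2% in TET_KO, 25.9% in TET_WT and 23.6% in DNMT_WT on D2. MOR203 (6 genes) averaged 57.3%, 30.7% and 26.3% and MOR213 (7 genes) 63.0%, 30.8% and 30.0% in the same lines. The highest in TET_WT among groups of 5 or more genes lay on chromosome 9, with MOR170 (9 genes) at 69.6% in TET_KO, 55.5% in TET_WT and 45.2% in DNMT_WT and MOR165 (7 genes) at 74.2%, 54.2% and 43.5%. The family with the most genes, MOR171 with 36 genes over 2417 kb, spanned 16.02% to 81.2% in TET_WT on D2. Genes of a family share neighbourhood and sequence, so they are not independent observations.

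Pramel7 and Pramel6, genes of the PRAME family expressed in early mouse embryos and naive stem cells, lie between receptor genes on chromosome 2, and their windows were among the 5 with the most negative difference of gains between TET_KO and TET_WT. The window of Pramel7, chr2:87488944-87495146, was at 75.2%, 69.6% and 71.9% in TET_KO and at 24.8%, 25.9% and 23.3% in TET_WT on D0. On D2 it was at 86.6%, 86.1% and 83.8% in TET_KO and 69.2%, 67.2% and 73.0% in TET_WT. TET_KO exceeded TET_WT by 47.6 ± 2.04 points on D0 and by 15.7 ± 2.04 on D2, without overlap of the libraries, and the gain was -31.9 ± 2.88 points in TET_KO against TET_WT (limma adjusted p = 1.9e-08). A window over Pramel6, chr2:87510512-87517378, was at 51.4%, 53.5% and 50.4% in TET_KO, 11.5%, 11.9% and 12.0% in TET_WT and 0.603%, 0.602% and 1.19% in DNMT_WT on D0. On D2 it was at 80.1%, 87.3% and 76.7% in TET_KO, 68.8%, 70.3% and 60.3% in TET_WT and 62.5%, 67.1% and 65.1% in DNMT_WT.

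The adjoining window with no annotated gene, chr2:87517379-87522101, had the largest difference between TET_KO and TET_WT of any cluster window on D0. It was at 71.6%, 71.6% and 77.9% in TET_KO and at 14.1%, 13.2% and 11.4% in TET_WT on D0, a difference of 60.8 ± 2.59 points. On D2 it was at 88.4%, 80.2% and 87.6% in TET_KO and at 76.5%, 74.6% and 70.6% in TET_WT, so that its gain differed by -49.3 ± 3.67 points (limma adjusted p = 2.4e-09), the most negative of the 817.

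A few windows of genes of other kinds were among the lowest of the clusters and are named for that, including the CpG-dense starts of Ssrp1 and Zfp202. The window at the start of Ssrp1, a subunit of the FACT histone chaperone, chr2:85036589-85037407, was at 1.49%, 0.595% and 1.60% in TET_KO, 0%, 1.30% and 0.823% in TET_WT and 0.792%, 0.496% and 0.716% in DNMT_WT on D2. The start window of Zfp202, a zinc finger gene, chr9:40191622-40192582, reached 6.55%, 10.4% and 8.01% in TET_KO, 2.00%, 4.24% and 2.31% in TET_WT and 5.47%, 7.92% and 4.90% in DNMT_WT. It was higher in TET_KO than in TET_WT by 5.48 ± 0.842 points (limma adjusted p = 7.9e-07), under the 10 points required for a call. Scn3b, a sodium channel subunit, had 5.63%, 5.65% and 4.86% in TET_KO, 2.94%, 2.80% and 1.32% in TET_WT and 2.54%, 2.16% and 3.18% in DNMT_WT in its lowest window, chr9:40269104-40270187. The body of Ssrp1, a short distance downstream in chr2:85039388-85041765, was at 88.2%, 93.2% and 86.4% in TET_KO, 53.5%, 57.9% and 55.9% in TET_WT and 71.2%, 70.3% and 69.3% in DNMT_WT on D2, with no overlap among the lines.

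Some cluster windows kept methylation in naive TET_WT cells. At 50% or more on D0 in TET_WT there were 47 windows, 5.75% of the clusters, against 2.87% of the rest of the genome. Of these 40 held no annotated gene and 44 were under 8 kb long, and in TET_KO they averaged 73.5% and in DNMT_WT 16.2% on D0. Of the 12722 such windows in the rest, 8070 held no annotated gene and 12324 were under 8 kb long. Those averaged 72.3% in TET_KO and 15.1% in DNMT_WT on D0. The highest of the 47 cluster windows, chr2:88173789-88179094, was at 92.0%, 85.0% and 83.0% in TET_KO, 74.4%, 67.4% and 76.8% in TET_WT and 26.8%, 23.8% and 30.9% in DNMT_WT on D0. On D2 it was at 89.1%, 95.5% and 79.7% in TET_KO and 86.8%, 91.0% and 84.9% in TET_WT, where the groups overlap and limma found a difference of 0.509 ± 4.54 points (adjusted p = 0.91). A window of 2398 bp with no gene, chr9:38413501-38415898, was at 73.2%, 76.3% and 73.8% in TET_KO and 69.0%, 73.3% and 69.6% in TET_WT on D0, where the groups overlap and limma found a difference of 3.78 ± 2.99 points (adjusted p = 0.223). Repeats in these windows were not annotated in the tables used.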

How the data were processed

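Whole-genome bisulfite libraries of 3 lines on 3 days were analysed, 3 for each line and day. Per the submitters' processing notes, the authors used Trim Galore 0.6.6, cutadapt 2.3 and Bismark 0.23.0 with GRCm38, and deposited CpG methylation as a percent from 0 to 100 for each library and window. How windows were filled, whether 100 counts sites or single cytosines, and any coverage filter are not given in the sources used here. Percentages were used as deposited.

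The fit of limma 3.58.1 (lmFit, eBayes with trend, R 4.3.3) had a mean for each of 9 groups over all 27 libraries, 18 residual degrees of freedom and a median residual SD of 2.60 points. It ran over 444250 nuclear windows for 14 contrasts, with Benjamini-Hochberg adjustment over windows, and was tested on simulated data. Means over windows were tested by exact permutation over libraries. In tests over 9 libraries of a line, signs were permuted across 3 days, so they average over a trend with day. SDs are over 3 libraries, SEs of single windows come from limma, and SEs of means use the groups compared. Tests of the gains over libraries were added after the data were seen.

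Gene positions and promoter sequences were from RefSeq (GRCm38.p6). A receptor gene was recognised by its Olfr symbol, and a pseudogene by ps in it. Lengths were split at 4, 8 and 16 kb. Named by rule were the 5 windows with the largest and the smallest difference of each contrast and the highest and lowest level of each group, the 10 receptor genes at each end of 2 rankings, namely TET_WT on D2 and TET_KO minus TET_WT on D0, and any other gene of the intervals. The members and lists were chosen with earlier results of these data known. Alternatives were tried as given at the end. The other steps ran in Python 3.11.15 (scipy 1.17.1 and pandas 2.3.3 on numpy 2.4.6, with plots by matplotlib 3.10.9).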

Additional observations from a re-analysis of the deposited data

Results flagged for a closer look

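The gain from D0 to D2 in the clusters, relative to the rest of the genome, differed between lines. Its p-values come from line labels permuted within each day, so they also carry differences in level between the lines on a day. Clusters minus rest gained 6.50 points more in TET_KO than in TET_WT (exact permutation p = 0.005, the smallest of 400 arrangements). Over 3 libraries each, clusters minus rest averaged -0.793 points on D0 and 1.202 on D2 in TET_KO, and 0.0418 on D0 and -4.46 on D2 in TET_WT. Within windows of 8 to 16 kb the same difference was 1.68 points (exact permutation p = 0.025, adjusted p = 0.05, which misses the threshold), so window length moved with it. For DNMT_WT against TET_WT the difference was -1.91 points (exact permutation p = 0.005) over all windows and -0.226 points (exact permutation p = 0.655) within 8 to 16 kb. It was -2.17 (exact permutation p = 0.085) against the rest of chromosomes 2 and 9 only, and -2.15 (exact permutation p = 0.1) between the first and the last receptor gene. By medians over windows the clusters lay below the rest in TET_KO on D2, at 73.2% against 76.8%, and the difference of gains was 7.63 points for TET_KO (exact permutation p = 0.005).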

How the results depend on the processing

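A minimum difference of 20 points, in place of 10, left 0 called windows in TET_KO and 1 in TET_WT from D0 to D1, 80 and 174 between D1 and D2, 23 in DNMT_WT from D0 to D1, 414, 435 and 5 for DNMT_WT against TET_WT on D0, D1 and D2, and 20 and 283 for the gains of TET_KO and DNMT_WT against TET_WT. Centring each library on its median left 5, 2 and 24 calls on the first day and 18, 255 and 337 on the second in TET_KO, TET_WT and DNMT_WT. It left 179, 156 and 282 for TET_KO and 230, 146 and 87 for DNMT_WT against TET_WT on the 3 days, and 380 and 268 for the gains. The Ssrp1 start window then turned to -39.8 points for DNMT_WT from D1 to D2 and -29.4 for TET_KO against TET_WT on D0, which is the centring itself. With medians over windows in place of means, clusters minus rest was -3.04 points from D1 to D2 (exact permutation p = 0.015), -0.17 for DNMT_WT against TET_WT (exact permutation p = 0.707) and -4.81 within TET_KO libraries (exact permutation p = 0.0039). With only receptor gene windows, clusters minus rest was 0.338 for DNMT_WT against TET_WT (exact permutation p = 0.585) and -3.86 within TET_KO libraries (exact permutation p = 0.0039). For the gain of DNMT_WT against TET_WT, clusters minus rest was -2.17 (exact permutation p = 0.085) with the rest limited to chromosomes 2 and 9 and -2.15 (exact permutation p = 0.1) with windows between the first and the last receptor gene only. The last choice, made after seeing the data, also gave -1.46 within TET_WT libraries (exact permutation p = 0.176, against p = 0.0273 and -1.78 points for all windows). The cause was not tested.

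Leaving out 1 library at a time gave 78 to 140 calls from D0 to D1 in TET_KO, with 140 without TET_KO D0 replicate 3, and 78 to 176 in TET_WT, with 176 without TET_WT D1 replicate 2. It gave 197 to 231 for the gain of TET_KO against TET_WT, with the direction of the majority turned without TET_WT D2 replicate 2. Clusters minus rest ranged from -2.02 to -1.41 within TET_WT libraries and from -3.51 to -2.69 within DNMT_WT libraries. In each, 6 of 9 omissions took the exact permutation p above 0.05. Fewer libraries allow fewer sign changes, so the p can rise for that reason alone. Replicate numbers as a block gave the same counts of calls, such as 205 for the gain of TET_KO against TET_WT, except 158 in place of 159 for DNMT_WT against TET_WT on D2, and deviations from group means correlated by -0.0549 to 0.0570 over 108 pairs of same-numbered libraries, so the numbers were not taken as pairs. The depth behind each percentage is unknown.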
